A study of Mus musculus with 5 samples.

Results

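MOL2a is 1 of 12 labels given to oligodendrocyte (OL) lineage cells of the adult mouse corpus callosum, and 1 of 8 labels of mature oligodendrocytes (MOLs). Its members are all cells that carry this label in the deposited table of cells, 230 of 2853 cells in all. The study asked whether dorsally and ventrally derived OLs differ, and isolated cells from the corpus callosum of healthy mice at P60. Their line is named for Emx1::Cre, Sox10::Cre and LoxP-GFP-STOP-TdTom and is on a mixed CBA and C57BL/6 background. The study took TdTom+ cells as dorsally and GFP+ cells as ventrally derived, and Emx1 is a gene of dorsal forebrain progenitors. Tissue of 2 mice was pooled, and sorted TdTom+ and GFP+ cells were each made into 1 library with 10x Genomics chemistry that counts the 3′ ends of transcripts by unique molecular identifiers (UMIs). The 3 samples from spinal cord were not analysed here. With 1 library per origin there is no replicate, and the labels come from clustering of these same cells, so no test was made and the intervals given, all at 95%, cover counting error only.

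Oligodendrocytes wrap axons in myelin and supply them with metabolites. They arise from oligodendrocyte precursor cells (OPCs) through committed precursors (COPs), newly formed (NFOL) and myelin-forming (MFOL) stages, and mature cells fall into several transcriptional populations. Mature cells of the MOL2 kind are recognised by Hopx, a small homeodomain protein that does not bind DNA, Anxa5, a calcium-dependent phospholipid-binding protein, and Klk6, a secreted serine protease, whereas cells of the MOL5/6 kind are recognised by Ptgds, the enzyme that makes prostaglandin D2, and Il33, a nuclear cytokine. In the mm10 assembly Hopx is at chr5:77086988-77115121 on the minus strand, Anxa5 at chr3:36448923-36475894 on the minus strand and Klk6 at chr7:43824499-43832030 on the plus strand.

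MOL2a cells made up 163 of 1901 TdTom+ cells, or 8.57% (exact Clopper-Pearson interval 7.35 to 9.92%), and 67 of 952 GFP+ cells, or 7.04% (5.50 to 8.85%). The intervals of the libraries overlapped. Of the MOL2a cells 70.9% (64.5 to 76.7%) were TdTom+, beside 66.6% of all cells and 62.1% (57.3 to 66.6%) of the cells labelled MOL2b. The MOL2a cells held 694626 UMIs in the TdTom+ and 294944 in the GFP+ library. Their median was 3962 and 4001 UMIs per cell and 1708 and 1682 genes per cell, and their median UMI number was the third highest of the 12 labels in each library. OPC markers had 7 and 2 UMIs among them, microglial markers 1 and 1, endothelial markers 1 and 1, and neuronal markers 15 and 10. No MOL2a cell held 3 or more markers of any of these types. Astrocyte markers had 130 and 52 UMIs, and 3 MOL2a cells held 3 or more of them. 1 barcode sequence occurred in both libraries, and 1 of its cells is MOL2a.

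The MOL2 markers were present in MOL2a, but none was found in this label alone. UMIs were summed over the cells of a label in a library and scaled to 1000000 (CPM). Hopx stood at 219 CPM (exact Poisson interval 185 to 257) in TdTom+ and 264 CPM (209 to 330) in GFP+ MOL2a cells, beside 221 and 261 CPM in MOL2b. MOL2b was the highest of the labels in TdTom+ and MOL2a in GFP+ cells, with overlapping intervals, and MOL2/4 followed in GFP+ cells with 247 CPM (186 to 323). Anxa5 stood at 164 CPM (135 to 197) in TdTom+ MOL2a cells, the highest of the 12 labels there, with MOL2/MFOL next at 138 CPM (113 to 168). In GFP+ cells Anxa5 was at 142 CPM in MOL2a, 142 CPM in MOL2b and 220 CPM (168 to 282) in MOL2/MFOL. The OPC label had 1 and 0 UMIs of Hopx, and the mature label MOL6a 4.96 and 2.09 CPM.

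Klk6 was at 230 CPM in TdTom+ and 444 CPM in GFP+ MOL2a cells. The label with most Klk6 was MOL2/4, with 712 and 2235 CPM, so MOL2a was the fourth of the 12 labels in TdTom+ and the fifth in GFP+ cells. S100b, a calcium-binding protein of glia, was at 1778 CPM (1680 to 1880) and 2272 CPM (2103 to 2450), the highest of the 8 mature labels in both libraries. In GFP+ cells MOL2b followed with 2251 CPM, within the intervals, and in TdTom+ cells with 1298 CPM (1233 to 1367). Spock3, an extracellular proteoglycan, was at 341 and 261 CPM in MOL2a, the third and the fifth of the 12 labels, with MOL2/4 highest at 652 and 696 CPM. Hopx, Anxa5 and S100b were thus high in MOL2a, Klk6 and Spock3 were higher in other labels, and Hopx and Anxa5 did not set MOL2a apart from MOL2b in both libraries.

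**Figure D1:**
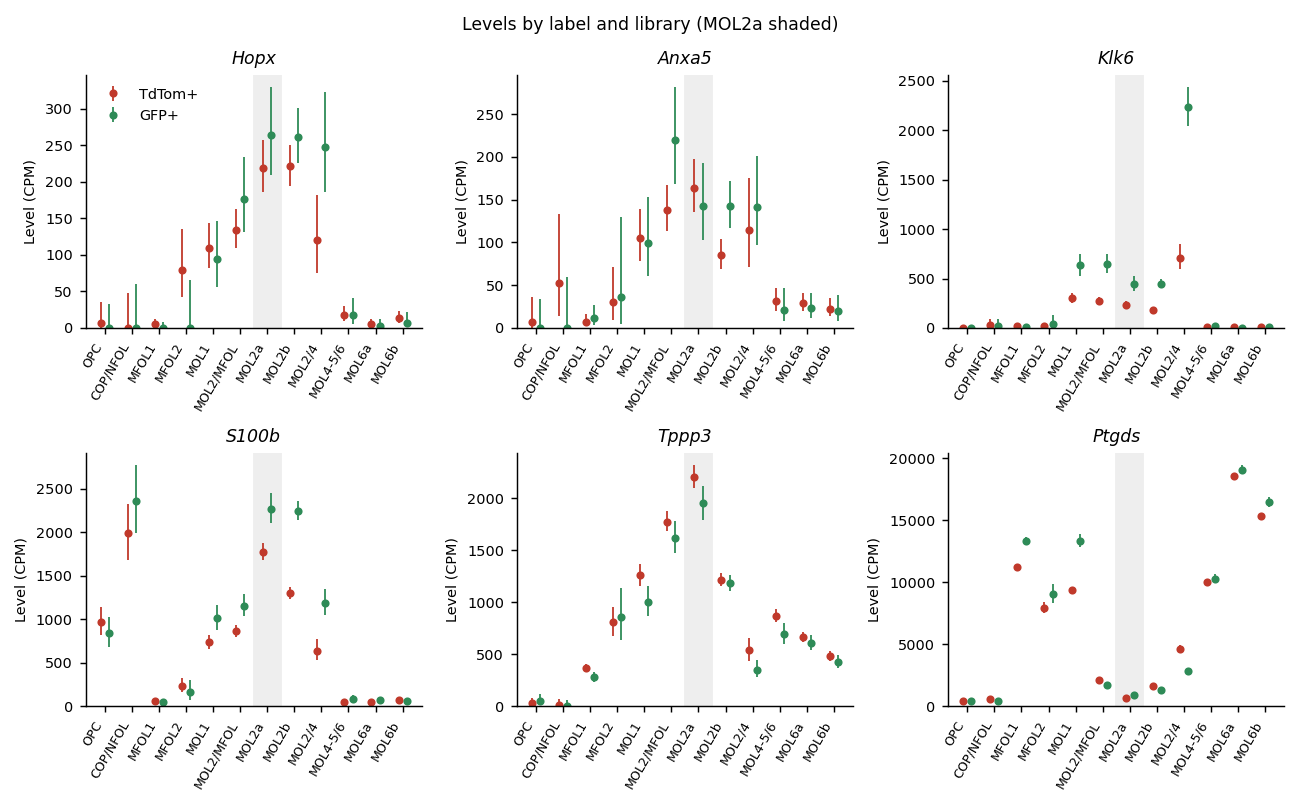
Level of 6 genes (CPM, linear axes that start at 0) in each of the 12 labels, with TdTom+ cells in red and GFP+ cells in green. Points are summed UMIs and bars exact Poisson intervals at 95%, MOL2a is shaded, and a reader should see Hopx at 219 and 264 CPM beside 221 and 261 CPM in MOL2b, Tppp3 highest in MOL2a, and Ptgds lower in MOL2a than in any other mature label.

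MOL2b is the label closest to MOL2a in name. A gene was counted as past the fold where the log2 ratio of CPM, with 1 CPM added to both, was at least 0.5 in size and of one sign in both libraries, over the 2908 genes whose mean reached 50 CPM. By this measure 95 genes (3.27%) were higher and 21 genes (0.722%) lower in MOL2a than in MOL2b. With all cells thinned to 2400 UMIs the counts were 108 and 57, and 60 of the 95 and 10 of the 21 genes were among them. A gene could reach the mean through one of the groups alone, which fixed its direction though not that it was past the fold. Of the 10 highest and 10 lowest, Slc1a2, Wapl and Rab10os did so through MOL2b. Hspa1a, Trappc3, Emc4 and Tmem128 did so through MOL2a. Rhoa, Gapdh, Ahsa1, Trappc3 and Tppp3 were among those higher, and Slc1a2, Ptgds and Pex5l among those lower. The counting interval lay on one side of 0 in both libraries for 80 of these genes, and 14 genes were past the fold in opposite directions in the libraries. The ratios of the libraries correlated with r = 0.413 across the 2908 genes, which share the assignment of labels, and 99.8% of genes had a mean log2 ratio within 1 of 0. The median log2 ratio over all genes tested was 0.02 in TdTom+ and 0.04 in GFP+ cells.

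Rhoa, the small GTPase that controls the actin cytoskeleton, was at 665 CPM in TdTom+ and 658 CPM in GFP+ MOL2a cells, beside 329 and 310 CPM in MOL2b. Its log2 ratio was 1.01 (0.82 to 1.22) in TdTom+ and 1.08 (0.80 to 1.37) in GFP+ cells. The fold was 2.02 and 2.12, and Rhoa had the most UMIs of the 10 genes with the highest mean ratios. Gapdh, an enzyme of glycolysis, was at 443 and 495 CPM beside 223 and 257 CPM, with log2 ratios of 0.99 (0.75 to 1.24) and 0.94 (0.62 to 1.26). Ube2g1, a ubiquitin-conjugating enzyme, was at 157 and 180 CPM beside 78.0 and 88.4 CPM. Ahsa1, a co-chaperone that activates HSP90, was at 131 and 108 CPM beside 60.3 and 43.5 CPM, with log2 ratios of 1.11 (0.65 to 1.59) and 1.30 (0.57 to 2.06). For each of these genes the intervals of the libraries overlapped.

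Of the others of the 10 highest, Trappc3, of the TRAPP vesicle tethering complexes, had log2 ratios of 1.33 (0.75 to 1.98) and 1.21 (0.46 to 1.98). Ran, the GTPase of nuclear transport, had 0.74 (0.32 to 1.16) and 1.19 (0.59 to 1.82), and Glrx3, a glutaredoxin of iron-sulfur metabolism, 0.84 (0.37 to 1.34) and 1.01 (0.28 to 1.75). Emc4, a subunit of the endoplasmic reticulum membrane complex, and Tmem128 were at 60.5 to 102 CPM in MOL2a and 31.0 to 40.9 CPM in MOL2b. The highest mean ratio belonged to Hspa1a, an inducible heat shock protein, and it differed between the libraries. Hspa1a was at 79.2 CPM in TdTom+ and 163 CPM in GFP+ MOL2a cells beside 49.7 and 39.6 CPM in MOL2b, with log2 ratios of 0.66 (0.11 to 1.24) and 2.01 (1.35 to 2.75). Its coding sequence is nearly identical to that of Hspa1b, so reads could be split between them.

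Of the genes lower in MOL2a, Slc1a2, the main glutamate transporter of astrocytes, had the largest ratio. It had 10 UMIs in 9 of 163 TdTom+ and 3 UMIs in 3 of 67 GFP+ MOL2a cells, against 132 UMIs in 48 of 270 and 46 UMIs in 30 of 165 MOL2b cells. The log2 ratios were -2.94 (-4.12 to -2.10) and -2.47 (-4.91 to -0.94). A single MOL2b cell held 26 of these UMIs. The 6 astrocyte markers together were at 187 and 176 CPM in MOL2a and 381 and 284 CPM in MOL2b, and with the 3 MOL2a and 13 MOL2b cells that held 3 or more of them left out the mean log2 ratio of Slc1a2 was -2.73, beside -2.70 with all cells.

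Ptgds was at 664 CPM in TdTom+ and 868 CPM in GFP+ MOL2a cells, beside 1602 and 1306 CPM in MOL2b, with log2 ratios of -1.27 (-1.42 to -1.12) and -0.59 (-0.79 to -0.39). The difference lay in the upper part of the cells. At 2400 UMIs per cell the median was 1 UMI in MOL2a in each library and 1 and 0.5 in MOL2b, and the 90th percentile was 4 and 5.6 in MOL2a and 12.7 and 10.9 in MOL2b. Pex5l, which binds and regulates HCN channels, was at 253 and 241 CPM beside 395 and 405 CPM, with ratios of -0.64 (-0.90 to -0.38) and -0.75 (-1.14 to -0.37). Jph4, a junctophilin that ties the endoplasmic reticulum to the plasma membrane, had ratios of -0.74 (-1.09 to -0.42) and -0.65 (-1.30 to -0.04). The endosomal adaptor Appl1, the ubiquitin ligase Pja2, the cohesin release factor Wapl, the RNA-binding Larp4b, the GTPase-activating Arap2 and Rab10os, which lies opposite Rab10, completed the 10 lowest, at 33.9 to 64.8 CPM in MOL2a and 55.4 to 121 CPM in MOL2b. Of these 6 genes, Wapl and Larp4b in GFP+ and Arap2 and Rab10os in TdTom+ cells had intervals that reached 0.

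**Figure D2:**
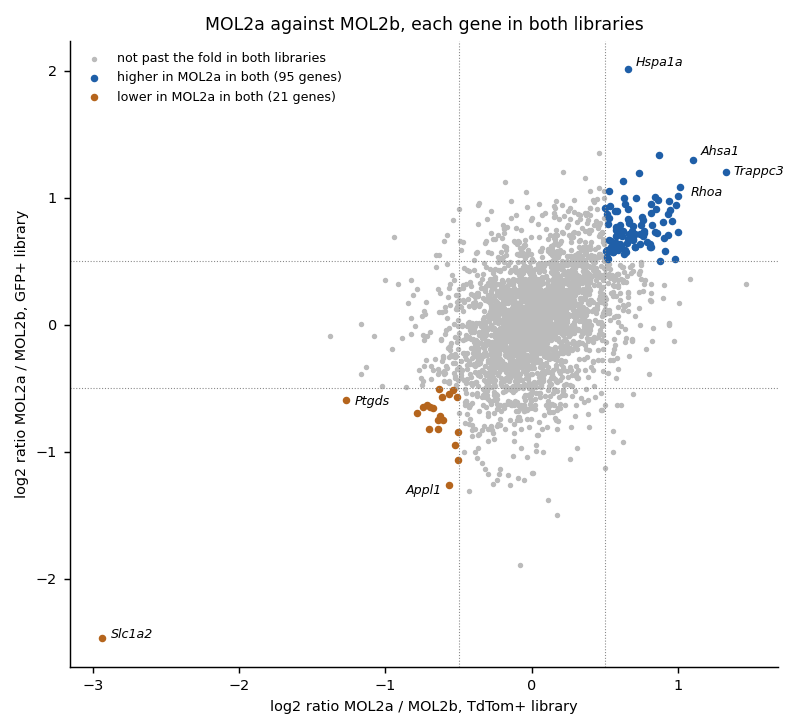
Log2 ratio of MOL2a to MOL2b (CPM with 1 CPM added) in the TdTom+ library on the horizontal axis and the GFP+ library on the vertical axis, 1 point per gene for 2908 genes, with dotted lines at 0.5 and -0.5. Blue points are the 95 genes higher and brown points the 21 genes lower in MOL2a in both libraries, with Slc1a2 far from all others.

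Lists of genes had from 0 to 2 members past the fold in either direction against MOL2b, and their counts stand beside 3.27% higher and 0.722% lower over all genes. None of the 5 MOL2 markers passed, with log2 ratios of Hopx at -0.01 and 0.02, Klk6 at 0.36 and -0.01, and Spock3 at 0.01 and -0.49. Anxa5 had 0.94 (0.54 to 1.35) in TdTom+ but 0.00 (-0.55 to 0.53) in GFP+ cells. Of 18 structural myelin genes 1 was higher, Cldn11, the claudin of myelin tight junctions, at 4097 and 3730 CPM beside 2514 and 2433 CPM (ratios 0.70 and 0.62), and the list's median ratio was 0.02, beside 0.03 over all genes.

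Of 17 tubulin and cytoskeleton genes tested 2 were higher. Tppp3, which promotes tubulin polymerisation, was at 2206 and 1950 CPM beside 1214 and 1182 CPM, with log2 ratios of 0.86 (0.76 to 0.97) and 0.72 (0.57 to 0.87). Stmn1, a protein that binds free tubulin, was at 3068 and 3187 CPM beside 1914 and 1998 CPM, with ratios of 0.68 and 0.67. The list's median ratio was 0.11. Both genes were higher by nearly the same ratio in each library.

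Of 10 glutathione and detoxification genes tested 1 was higher, Mgst3, a microsomal glutathione transferase, with ratios of 0.93 (0.50 to 1.38) and 0.87 (0.37 to 1.38), and this list had a median of 0.38. Of 26 respiratory chain and ATP synthase genes 2 were higher, Cox4i1 with 0.52 in each library and Sdhb with 0.61 and 0.72. Of 9 axon support and transporter genes 1 was higher, the lactate dehydrogenase subunit Ldhb, with 0.98 (0.58 to 1.39) and 0.52 (-0.02 to 1.05). Of 10 heat shock and chaperone genes tested 1 was higher, Hspa1a. None of 22 ribosomal protein genes, 16 lineage transcription factors, 16 fatty acid and galactolipid genes, 11 paranode and adhesion genes, 6 cholesterol synthesis genes or 4 immediate early genes tested was past the fold. Measures of RNA quality also moved with the comparison, as the nuclear RNA Malat1 was at ratios of -0.16 and -0.18, and the median share of mitochondrial UMIs was 1.12 and 1.10% in MOL2a and 1.28 and 1.29% in MOL2b. Their part in the 95 and 21 genes was not tested.

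Against the 7 other mature labels summed, which include MOL2b and hold 2181 cells, 81 of 2897 genes (2.80%) were higher and 72 (2.49%) lower in MOL2a. The genes higher included S100b, Hopx, Anxa5, Tppp3 and Stmn1. The genes lower included Ptgds and Il33, the immediate early genes Junb, Fos and Egr1, and the membrane proteins Opalin and Cd9. The interval lay on one side of 0 in both libraries for 120 of these genes, and 4 genes were past the fold in opposite directions. Depth and mitochondrial share also differed, with medians of 1.12 and 1.10% mitochondrial UMIs in MOL2a but 1.72 and 1.83% in MOL6b and 2.07 and 2.05% in MOL2/4, and of 3962 and 4001 UMIs per cell in MOL2a but 2865 to 3140 in MOL4-5/6, MOL6a and MOL6b. Their part in the 81 and 72 genes was not tested. The ratios of the libraries correlated with r = 0.582 across genes.

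Uchl1, a ubiquitin hydrolase, had the highest mean ratio, with 102 CPM in TdTom+ and 129 CPM in GFP+ MOL2a cells beside 26.9 and 51.7 CPM, and log2 ratios of 1.89 and 1.30 (0.76 to 1.84). S100b followed, with 521 and 979 CPM in the other mature cells and ratios of 1.77 (1.67 to 1.87) and 1.21 (1.09 to 1.34). Hopx had ratios of 1.32 (1.05 to 1.60) and 1.07 (0.70 to 1.44). Tppp3 was at 992 and 870 CPM in the other cells, with ratios of 1.15 and 1.16. The transcription factor Nkx2-9, a homeobox gene, was at 69.1 and 84.8 CPM, with ratios of 1.55 (1.07 to 2.08) and 0.91 (0.24 to 1.56). Tmsb10, a thymosin that binds actin monomers, was at 337 and 407 CPM beside 150.0 and 212 CPM. The remaining genes of the 10 highest were Mgst3, the semaphorin Sema5a, Casc4 and the LIM protein Crip2, whose interval in GFP+ cells reached 0 (-0.11 to 1.35). Of the 10, Uchl1, S100b, Nkx2-9 and Crip2 had TdTom+ ratios more than 0.5 above their GFP+ ratios.

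The ratios downward were larger in size. Ptgds was at 9366 and 8973 CPM in the other mature cells, with log2 ratios of -3.82 (-3.95 to -3.69) and -3.37 (-3.55 to -3.19). Il33 was at 33.1 and 64.4 CPM in MOL2a beside 420 and 362 CPM, with ratios of -3.62 (-4.33 to -3.08) and -2.47 (-3.23 to -1.84). Junb, a member of the AP-1 family of transcription factors, had 8 and 2 UMIs in MOL2a, or 11.5 and 6.78 CPM beside 130 and 114 CPM, with ratios of -3.39 (-4.72 to -2.51) and -3.89 (-7.13 to -2.21). Fos, of the same family, was at 105 and 91.5 CPM beside 345 and 342 CPM.

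Apoe, the lipid carrier, was at 248 and 302 CPM in MOL2a beside 1415 and 1471 CPM, with log2 ratios of -2.51 and -2.28. Opalin, a membrane glycoprotein of oligodendrocytes, was at 213 and 248 CPM beside 919 and 799 CPM, and Cd9, a tetraspanin, at 57.6 CPM in each library beside 224 and 214 CPM. The semaphorin Sema6d, Phlda1 and the heme-binding Hebp1 completed the 10 lowest, with 27.1 to 48.9 CPM in MOL2a. Like Il33 and Junb, they reached the mean of 50 CPM through the other cells alone, which fixed their direction. Opalin and Cd9 were the 2 of 18 structural myelin genes past the fold. The median ratio of these 18 genes was -0.08, beside 0.04 over all genes, and 7 of them had a mean ratio above 0. Mbp, myelin basic protein, had ratios of 0.17 and 0.08. Car2, a carbonic anhydrase used as a MOL5/6 marker, was at 3580 and 3482 CPM beside 4481 and 4295 CPM and was not past the fold. Of the 6 MOL5/6 markers tested, Ptgds and Il33 were the 2 that were lower and none was higher. Of these 2 only Ptgds reached a mean of 50 CPM in MOL2a itself. The markers with a mean ratio above 0 numbered 2, among them Fth1 with 0.28 and 0.33.

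**Figure D3:**
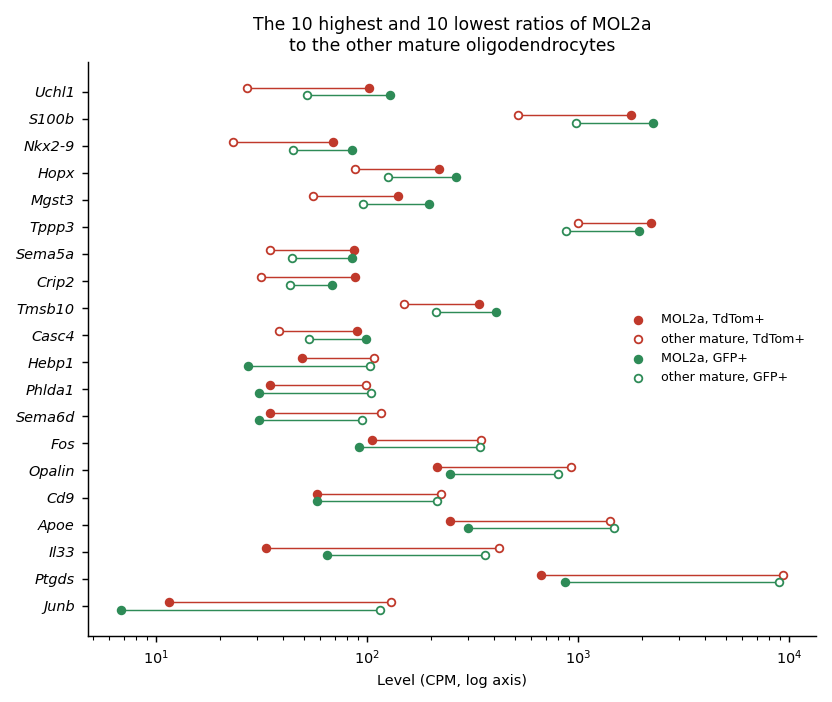
Level (CPM, log axis) of 20 genes, the 10 highest and 10 lowest by mean ratio of MOL2a to the other mature oligodendrocytes, filled circles for MOL2a and open circles for the other labels summed, TdTom+ in red and GFP+ in green. A line joins the 2 values of a library, and the longest lines belong to Ptgds, Il33 and Junb, all lower in MOL2a.

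Counts of list members stand beside 2.80% higher and 2.49% lower over all genes. A member could reach the mean of 50 CPM through one of the groups alone, which fixed its direction. Of the MOL2 markers 3 of 5 were higher than in the other mature cells (S100b, Hopx and Anxa5), and Klk6 had ratios of 0.78 and 0.03. Of 6 annexin and S100 genes tested 3 were higher, S100b and Anxa5 again and S100a6 at 199 and 254 CPM beside 105 and 127 CPM, with a list median of 0.72 beside 0.04 over all genes. Of 16 lineage transcription factors 2 were higher (Hopx and Nkx2-9) and 1 lower, Olig2, which specifies the lineage, at 111 and 105 CPM beside 176 and 165 CPM. Of the 2 that were higher, Nkx2-9 reached the mean of 50 CPM through MOL2a alone, and Hopx is also counted among the MOL2 markers. Of 17 tubulin and cytoskeleton genes 3 were higher (Tppp3, Stmn1 and Marcksl1). Of 6 immediate early genes tested 3 were lower and none higher, and of these 3 Junb and Egr1 reached the mean of 50 CPM through the other cells alone. The other mature labels differed widely in these genes. At 2400 UMIs per cell the list had a median of 4 UMIs in MOL2a, 3 in MOL2b, 2 in MOL2/4, 4 in MOL4-5/6 and MOL6b, 6 in MOL6a, 8 in MOL2/MFOL and 23 in MOL1. Junb alone was at 693 and 677 CPM in MOL1, beside 30.2 and 26.4 CPM in MOL2b. Of 11 heat shock and chaperone genes 3 were lower (Hspa8, Hspd1 and Dnajb1). Gstp1 was lower, with ratios of -0.84 and -1.04, and shares most of its sequence with Gstp2. The galactolipid enzyme Gal3st1 and the septin-binding anillin Anln were higher, and Slc38a2, a transporter of neutral amino acids, was lower. None of the ribosomal, respiratory chain or cholesterol synthesis genes was past the fold.

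MOL2a took the highest of the 8 mature levels in both libraries for 157 of the 2897 genes and the lowest for 57. The gaps to the next label were small at the top. Tppp3 was at 2206 and 1950 CPM, followed by MOL2/MFOL with 1774 and 1621 CPM, a log2 gap of 0.31 and 0.27. Fis1, of the mitochondrial outer membrane, was at 959 and 970 CPM, with 787 and 822 CPM in the next labels. By the smaller gap of the libraries Tmem50b came first, with gaps of 0.44 and 0.56 at 90.7 and 129 CPM. At the bottom, Junb, Ptgds and Apoe were lowest in MOL2a with log2 gaps to the next label of -1.18 and -1.55, -1.27 and -0.59, and -1.02 and -0.48. Junb had 8 and 2 UMIs in MOL2a. Its intervals overlapped those of the next label, MOL2/4 in TdTom+ and MOL6b in GFP+ cells. MOL2b was the next label for Ptgds and Apoe in both libraries.

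Between the origins, MOL2a cells differed in few genes at the settings used. The counts moved with the pseudocount, the filter and the depth, as the closing section gives. Over the 1580 genes whose mean reached 100 CPM, a log2 ratio of TdTom+ to GFP+ of at least 1 was reached by 2 genes (0.127%) that were higher and 1 gene (0.0633%) that was lower in TdTom+. Of all genes 95.1% were within 0.5 of 0, and the levels in the libraries correlated with Pearson r = 0.979 and Spearman rho = 0.938 across genes, which share the label and the pooled mice. Sorting by origin, the library and the mouse a cell came from cannot be told apart in these samples.

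Tob1, of an antiproliferative protein family, was at 157 CPM in TdTom+ and 74.6 CPM in GFP+ MOL2a cells, a log2 ratio of 1.06 (0.40 to 1.81), and Nxt2, of mRNA export, at 148 and 71.2 CPM, a ratio of 1.05 (0.37 to 1.81). In all other cells their ratios were -0.04 and 0.01. Gstp1, Lpgat1, an acyltransferase, and Sox10, the transcription factor that defines the lineage, followed with 0.91, 0.82 and 0.76. In all other cells the ratio was 0.66 for Gstp1 and 0.25 for Lpgat1. Sox10 was at 1019 and 604 CPM, and its ratio in all other cells was 0.66.

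Hspa1a was lower in TdTom+ MOL2a cells, with a ratio of -1.03 (-1.62 to -0.45), whereas in all other cells it was 0.61, and with cells thinned to equal depth its ratio within MOL2a was -2.12. Klk6 was at 230 CPM in TdTom+ and 444 CPM in GFP+ cells, a ratio of -0.94 (-1.29 to -0.60). In all other cells its ratio was -1.64, but these mix labels whose shares differ between the libraries. MOL2/4, the label with most Klk6, made up 60 of 1901 TdTom+ and 63 of 952 GFP+ cells. Within MOL2b Klk6 was at 179 CPM in TdTom+ and 447 CPM in GFP+ cells. Mapre3, a protein of growing microtubule ends, Atp5c1, a subunit of ATP synthase, and Gm16286 had ratios of -0.84 (-1.45 to -0.23), -0.81 (-1.27 to -0.36) and -0.79 (-1.42 to -0.16), and between -0.07 and 0.07 in all other cells.

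To compare single cells at equal depth, 2400 UMIs were drawn from every cell that held as many, so 222 of the 230 MOL2a cells were used and 6 TdTom+ and 2 GFP+ cells were not. At least 1 UMI of Hopx was found in 77 of 222 MOL2a cells, or 34.7% (28.4 to 41.3%), of Anxa5 in 22.5% (17.2 to 28.6%) and of Klk6 in 29.7% (23.8 to 36.2%). Without thinning the shares were 49.1, 39.1 and 36.5%. In OPCs, which had a median of 2909 and 2837 UMIs and should lack these genes, the thinned shares were 1.41%, 1.41% and 0 of 71 cells, and in MOL6a cells 1.23%, 7.13% and 1.47%. S100b was found in 73.0% of MOL2a cells. With both libraries pooled, the shares in MOL2b were 34.5% for Hopx, 18.8% for Anxa5, 31.2% for Klk6 and 73.0% for S100b.

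None of Hopx, Anxa5 and Klk6 was detected in 92 of 222 MOL2a cells, or 41.4% (34.9 to 48.2%), and all 3 were detected in 15 cells, or 6.76% (3.83 to 10.9%). Hopx and Anxa5 were found together in 25 cells, or 11.3% (7.42 to 16.2%), beside 7.81% if the 2 were independent. Within the libraries MOL2a and MOL2b stood in opposite order. In TdTom+ cells all 3 were found in 7.01% (3.55 to 12.2%) of MOL2a and 1.52% (0.414 to 3.83%) of MOL2b cells, and Hopx with Anxa5 in 12.7 and 6.06%. In GFP+ cells all 3 were found in 6.15% of MOL2a and 8.64% of MOL2b cells, and Hopx with Anxa5 in 7.69 and 11.7%. The intervals of MOL2a and MOL2b overlapped in each of these comparisons. In MOL6a 90.4% of cells had none of the 3. At this depth a cell without a UMI may still express the gene.

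By origin, Klk6 was found in 24.8% (18.3 to 32.4%) of TdTom+ and 41.5% (29.4 to 54.4%) of GFP+ MOL2a cells, and Hopx in 35.0 and 33.8%. Ptgds was found in 54.1% of MOL2a cells (47.3 to 60.7%), beside 58.7% in MOL2b, 56.3% in OPCs and 100% in MOL6a. The share in MOL2a was no higher than in OPCs and is not read as expression in those cells, whereas the summed level in OPCs was lower, at 406 CPM (312 to 520) in TdTom+ and 408 CPM (297 to 545) in GFP+ cells. Its median was 1 UMI per thinned MOL2a cell with a 90th percentile of 4.9 and a highest value of 37 UMIs, beside a 90th percentile of 2 in OPCs, and 39 and 89.0 UMIs at the median and 90th percentile of MOL6a. Few MOL2a cells therefore came near the level of MOL6a. Il33 was found in 8.11% of MOL2a cells, 5.63% of OPCs and 76.2% of MOL6a cells, and the MOL1 marker Egr2 in 0 of 222 MOL2a cells, which allows a share of cells with a UMI at this depth of up to 1.65% (exact interval) and sets no limit on cells that express it.

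**Figure D4:**
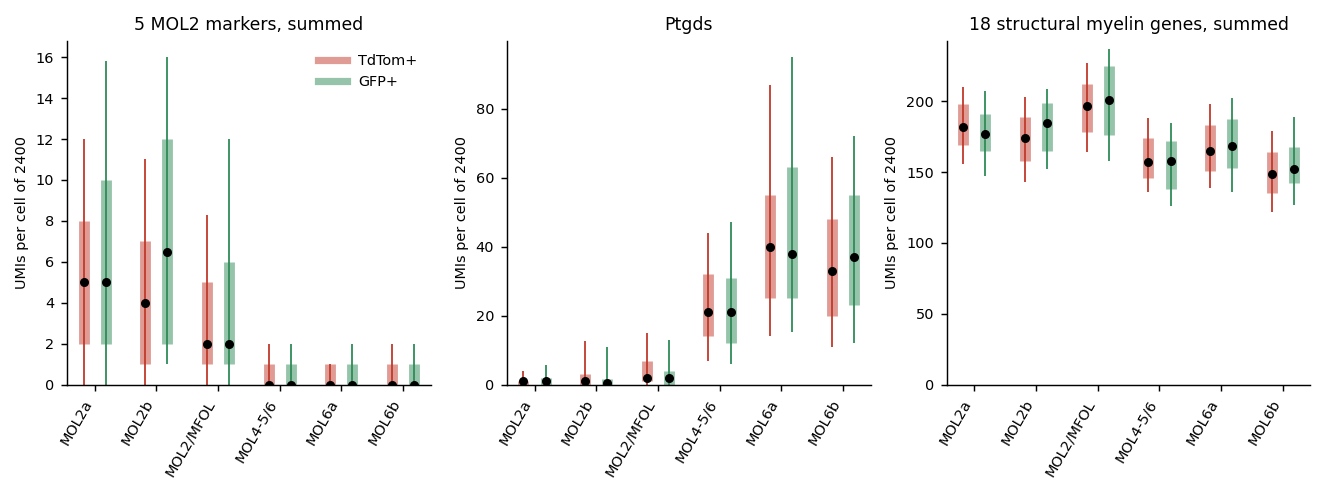
UMIs per cell after thinning to 2400 UMIs (linear axes that start at 0) for the summed MOL2 markers, Ptgds and the summed structural myelin genes in 6 mature labels, TdTom+ in red and GFP+ in green. Dots are medians, thick bars the middle of the cells from the 25th to the 75th percentile, and thin lines the 10th to the 90th percentile, and the MOL2a cells, with a median of 5 UMIs of MOL2 markers in each library, spread from 0 upward while their median of Ptgds was 1 UMI.

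Variation among the MOL2a cells was close to that of counting for most genes. Over 737 genes of at least 200 CPM the median ratio of variance to mean of the thinned UMIs was 1.05, beside 1.06 in MOL2b, and it was 2 or more for 12 genes, beside 13 in MOL2b. The highest values were those of Malat1 (14.9), Ptgds (9.59 in TdTom+ and 11.1 in GFP+ cells), Map4k4 (4.71), S100b (4.03) and Fth1 (3.97), the ferritin heavy chain. Map4k4, a protein kinase, owed its place to 1 TdTom+ cell with 23 UMIs, and without that cell its ratio was 1.02. S100b varied alike in both libraries, at 3.70 in TdTom+ and 4.61 in GFP+ cells. The 5 MOL2 markers together had a median of 5 UMIs in each library and none in 12.1 and 15.4% of cells. Most of this sum was S100b, with a mean of 3.82 UMIs per cell beside 0.577 of Klk6 and 0.514 of Hopx, and the same sum had a median of 5.5 UMIs in COP/NFOL cells and 2 in OPCs, so it does not mark MOL2 cells alone. The 18 structural myelin genes had a median of 182 and 177 of the 2400 UMIs, ranging from 134 to 253 and from 124 to 216.

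With all cells MOL2b was the label most like MOL2a, and with equal numbers of cells it could not be ranked against MOL2/MFOL. Across a mean of 2911 genes the median size of the log2 ratio between MOL2a and MOL2b was 0.226 (mean of the libraries), and the levels correlated with r = 0.959. MOL2/MFOL was next with 0.248 and r = 0.943, then MOL6a with 0.272 and MOL4-5/6 with 0.276. The measure also rises where a label holds few cells. With 50 cells drawn from each label and library, MOL2b and MOL2/MFOL were at 0.314 and 0.315, with MOL2/MFOL the lower in TdTom+ and MOL2b in GFP+ cells, and MOL1 was next at 0.354. Against MOL2/MFOL 37 genes (1.27%) were higher and 167 (5.75%) lower in MOL2a, the reverse balance of the comparison with MOL2b.

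On 30 components of 3000 variable genes, 51.1% of the 15 nearest neighbours of MOL2a cells carried the same label, which makes up 8.06% of all cells, 29.8% were MOL2b and 8.93% MOL2/MFOL. The most frequent label among the neighbours was MOL2a for 148 of 230 cells, or 64.3%, MOL2b for 50 cells and MOL2/MFOL for 18 cells. A clustering on these components gave 11 clusters, none of them made mainly of MOL2a. The 2 clusters with most MOL2a cells held 113 and 56 of them beside 264 and 132 MOL2b cells, and the next 2 held 29 and 20 beside 151 and 70 MOL2/MFOL cells. In each of these clusters MOL2a was under 30% of the cells (29.3% at most). The study integrated the TdTom+ and GFP+ libraries and joined them with an earlier dataset before labelling, which was not done for these components. The clusters on them did not split MOL2a from MOL2b. MOL2a cells had more neighbours of their own label than of MOL2b, which labels made by clustering these same cells favour.

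**Figure D5:**
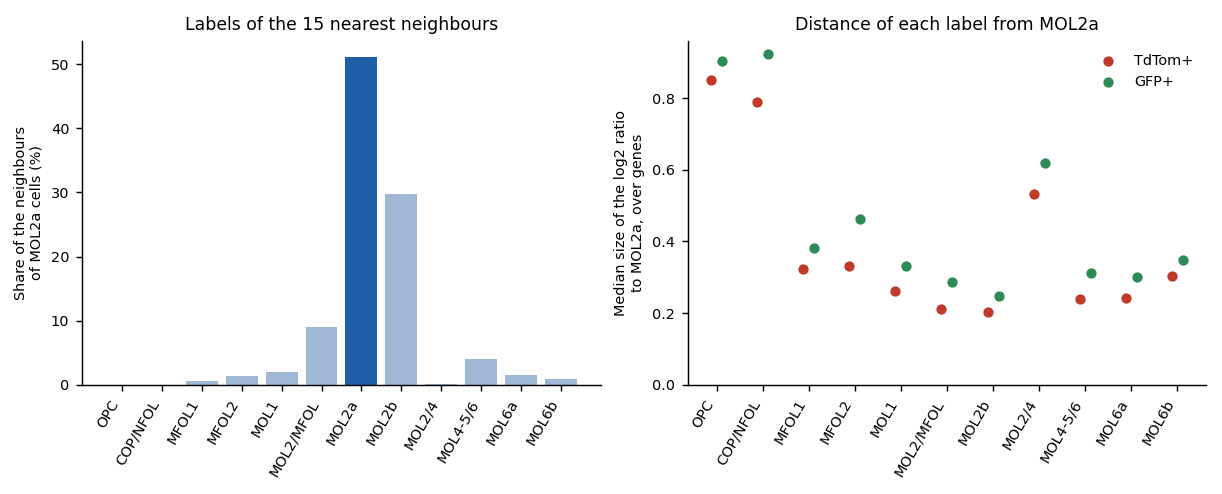
Left, share of the 15 nearest neighbours of MOL2a cells that carry each label (%, bars from 0), with MOL2a at 51.1% and MOL2b at 29.8%. Right, median size of the log2 ratio between each label and MOL2a over genes of at least 50 CPM, TdTom+ in red and GFP+ in green, with all cells, lowest for MOL2b in both libraries.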

How the data were processed

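OL lineage cells of the corpus callosum were sorted into 1 TdTom+ and 1 GFP+ library (10x Genomics 3′ version 2). The authors aligned reads with STAR (version not given in the sources used here) and kept cells with 200 to 3000 genes and under 5% mitochondrial UMIs, and the submitters' processing notes name Cell Ranger 2.1.1 and mm10. The deposited matrix holds a signal, the fraction of each cell's UMIs per gene, for 11733 genes, of which 81 had 0 UMIs. A deposited table of cells gave each cell's UMI count, its library and its label. Fractions were divided by the lowest value above 0 of the cell, and 100% of values above 0 came within 0.01 of a whole UMI. Cells outside the stated limits numbered 33, of which 3 were MOL2a, and were kept.

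UMIs were summed per label and library (CPM) and compared as log2 ratios with a pseudocount of 1 CPM, which understates the ratio of low genes. Intervals at 95% were exact (Clopper-Pearson, Poisson, and conditional on both sums). Without replicates no test was made. The members and gene lists were chosen with earlier results of these data known. Alternative filters, pseudocounts, scalings and depths were tried. Named genes are the 10 highest and 10 lowest past the fold per comparison of labels, the 5 and 5 between libraries, the 5 of highest variance over mean, and members of the lists. Of the markers, the ependymal and pericyte lists have no row in the matrix, and red blood cell markers had 10 and 7 UMIs in MOL2a. Scrublet marked 4 and 9 cells of the libraries, of which 1 was MOL2a, so few that it may not have worked. Gene positions are those of GENCODE M21. The ratios and intervals were tested on simulated data in which cells of a label differed by counting alone. The simulation therefore does not cover genes that vary more among cells, such as Ptgds, S100b and Malat1. Cells were thinned without replacement with a random seed of 1. Clusters were found with the Leiden algorithm at a resolution of 0.8. The tools were scanpy 1.11.5 and igraph 0.11.9 for neighbours and clusters, scipy 1.17.1, pandas 2.3.3 and numpy 2.4.6 in Python 3.11.15 for all else, edgeR 4.0.16 in R 4.3.3 for TMM factors of the summed UMIs only, and matplotlib 3.10.9. Results for 1 gene of the lists are not reported here.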

Additional observations from a re-analysis of the deposited data

Results flagged for a closer look

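Genes past the fold in opposite directions in the libraries numbered 14 against MOL2b and 4 against the other mature cells. For 3 of them the intervals lay on opposite sides of 0, and with 1 library per origin the difference between the libraries was not tested. Hspa1a, MOL2a over the other mature cells, had a log2 ratio of -0.93 (-1.36 to -0.54) in TdTom+ and 0.83 (0.36 to 1.29) in GFP+ cells. Against MOL2b, Slc35b1 had -0.60 in TdTom+ and 0.66 in GFP+ cells, and D16Ertd472e had 0.62 in TdTom+ and -0.92 in GFP+ cells. Groups were too small for any value to be compared with the others of its group.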

How the results depend on the processing

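No paired analysis was possible because each origin gave a single library, while ratios between labels were taken within each library. Values of the 50 single genes kept their sign in all 404 recomputations, and 394 stayed within their counting interval. Part of this was fixed in advance. A changed filter left a gene's ratio as it was. Genes named between labels had one sign in both libraries by choice, so neither library alone could reverse them. The counts of genes past the fold moved with the filter, the depth and the number of libraries. Against MOL2b, 26 higher and 3 lower genes were found at a mean of at least 200 CPM, 440 and 795 without a filter, 216 and 134 in the TdTom+ library alone, and 332 and 244 in the GFP+ library alone. Thinning gave 108 and 57, of which 60 and 10 were among the 95 and 21 genes of the full data. Against the other mature cells the counts were 23 and 19 at 200 CPM, 380 and 953 without a filter, 174 and 166 in TdTom+ alone, and 258 and 237 in GFP+ alone. Between the origins within MOL2a, a pseudocount of 10 CPM or a mean of at least 200 CPM gave 0 and 0 genes, no filter 1508 and 887, and thinning 7 and 8, so the 2 and 1 genes past the fold rest on these settings. TMM factors and the mean of each cell's CPM kept all counts within 1.5 times, as did leaving out cells with 3 or more astrocyte markers, an alternative chosen after seeing the data. Of all mature cells MOL2a made up 10.1% in TdTom+ and 8.47% in GFP+.

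Shares of MOL2a cells with a marker moved with depth and with the UMIs asked for. Without thinning they were 49.1% for Hopx, 39.1% for Anxa5, 36.5% for Klk6, 71.3% for Ptgds, 100% for Car2, 13.5% for Il33 and 19.1% for Grm3. At 1000 UMIs they were 16.1% for Hopx, 13.9% for Anxa5, 16.5% for Klk6, 59.1% for S100b, 30.9% for Ptgds, 96.5% for Car2 and 4.78% for Grm3. With at least 2 UMIs they were 12.6% for Hopx, 4.05% for Anxa5, 14.4% for Klk6, 61.3% for S100b, 25.7% for Ptgds, 0.901% for Il33 and 1.35% for Grm3. The median size of the log2 ratio to MOL2b was 0.166 at a mean of at least 200 CPM and 0.314 with 50 cells per label and library. The share of MOL2a cells whose neighbours were most often MOL2a stayed between 64.3 and 68.7% with 30 neighbours, components centred per library, and without Hopx and Anxa5.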
